A study of Mus musculus with 48 samples.

Results

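The mRNA of whole brains from Tg2576 mice was compared between 17 and 10 months of age on 1-colour arrays, with 3 arrays of each age. These 6 arrays were chosen by genotype, tissue and age alone and belong to a series of 48, of which 24 measured mRNA and 24 measured miRNA in cortex and whole brain of Tg2576 and WT mice. Tg2576 mice, listed as strain Tg(APPSWE)2576Kha, carry human APP with the Swedish mutation under the hamster prion protein promoter, and WT mice were C57BL/6J. Every sample was labelled male, and no treatment is listed. As the labels number the samples only as replicates, p-values measure the spread between these samples.

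In Tg2576 mice the amyloid beta peptide, which is cut from APP by beta- and gamma-secretase, collects in plaques as the animals age. Microglia around plaques lower their homeostatic genes and raise a set that includes Cst7, Itgax and Trem2, and astrocytes in ageing or injured tissue raise intermediate filament genes such as Gfap. Many of these glial genes are also known to rise with age in mice without plaques, so the same ages of WT mice were set beside the Tg2576 values.

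Each value below is the log2 intensity of a probe minus the 75th percentile of its array. An array held 55681 probes, of which 37530 to 38210 were well above background at 10 months and 34155 to 35720 at 17 months, and the 75th percentile of the intensity lay between 636 and 708 at 10 months and between 507 and 612 at 17 months. The older arrays therefore detected fewer probes and were dimmer, with no overlap between the ages, and the part of this in the results was not tested. Replicate 1 of the 10-month-old mice lay on slide 2 and the other 5 arrays on slide 3. Pearson's r over the probes tested was 0.993 to 0.996 among the 10-month arrays, 0.991 to 0.992 among the 17-month arrays and 0.987 to 0.990 between ages.

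The labels were checked against marker genes. Snap25 of neurons, Gfap of astrocytes, Mbp of oligodendrocytes, Cx3cr1 of microglia, Drd2 of striatum and Slc17a7 of cortex and hippocampus were well above background on all 6 arrays. Xist, which is transcribed from the inactive X chromosome of female cells, was also well above background on all 6 arrays, at 1.28, 1.42 and 1.43 at 10 months and 1.07, 1.04 and 0.90 at 17 months. The Y-linked genes Ddx3y, Kdm5d and Uty were well above background on 0 of these 6 arrays, and Eif2s3y on 1. The same held for the 6 WT whole brains, with Xist between 0.99 and 1.40, so the expression of these genes goes against the label male in both genotypes and at both ages. Xist was lower at 17 months in Tg2576 brains, with a log2 fold change of -0.37 (standard error 0.09, limma adjusted p = 0.0439). A further Xist probe differed by -0.26 and was not called. No probe for the human transgene was identified here, so the genotype was not checked.

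Marker genes of some brain regions differed widely between arrays of 1 group. Gabra6, a GABA-A receptor subunit of cerebellar granule cells, was at -3.88, -5.92 and 1.68 at 10 months and -3.94, -7.10 and -2.04 at 17 months, and it was not well above background in replicate 2 of either age. S100a5, expressed in olfactory sensory neurons whose fibres end in the olfactory bulb, was at -1.60, 2.04 and -1.91 at 10 months and -1.14, -2.86 and 0.56 at 17 months. Prl, the prolactin gene of the pituitary, was at -3.58, 2.03 and -1.65 at 10 months and -0.58, -1.84 and 3.45 at 17 months. In all 3 genes the arrays of each age spanned more than the difference between the ages, and none of the 12 olfactory bulb, 11 cerebellum or 6 pituitary genes tested passed the threshold. The median log2 fold change of the pituitary genes ran from 0.05 to 2.96 on leaving out 1 array, that of the cerebellum genes from -0.25 to 0.48 and that of the olfactory bulb genes from -0.80 to 0.45. How much of each region went into a sample was not measured, and it was not tested as a cause of any difference below.

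**Figure D1:**
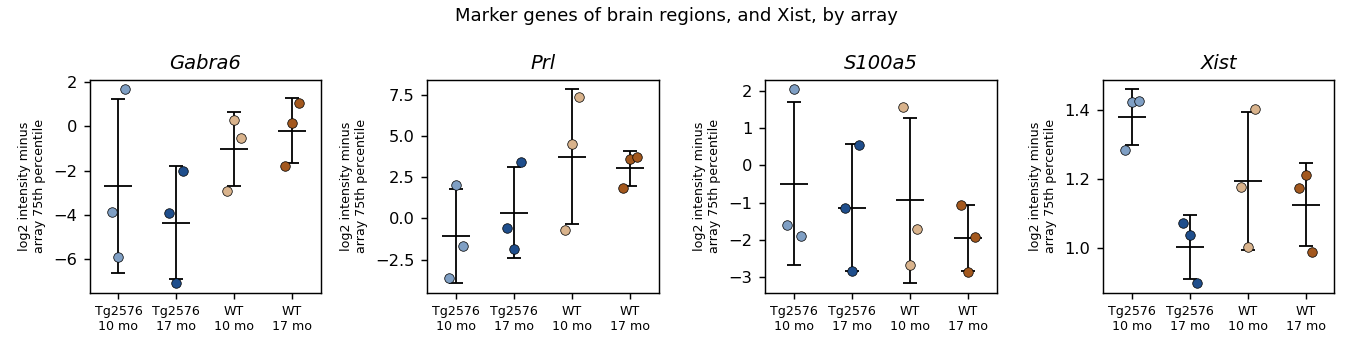
Levels of Gabra6 (cerebellum), Prl (pituitary), S100a5 (olfactory bulb) and Xist on each of the 12 whole brain arrays, as log2 intensity minus the 75th percentile of the array, with the mean and SD of each group of 3. Within the 10-month-old Tg2576 brains Gabra6 ran from -5.92 to 1.68, while Xist stayed between 0.90 and 1.43 on all 6 Tg2576 arrays.

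Of 37899 probes tested, 4591 differed between 17 and 10 months (limma, Benjamini-Hochberg adjusted p under 0.05), with 2491 higher and 2100 lower at 17 months. With 1 probe per gene, 15855 genes were tested, of which 1715 (10.8%) rose and 812 (5.12%) fell. Every 17-month array was above every 10-month array for 4256 genes (26.8%) and below for 3042 (19.2%). The methods' criterion of an unadjusted p under 0.05 and a fold over 1.5, with limma's p, gave 1280 probes higher and 1391 lower. The median log2 fold change over all genes was 0.03.

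These counts rested on every array. Without replicate 2 of the 10-month-old mice 92 probes were called, without replicate 3 there were 42, and without replicate 1, which left only slide 3, there were 2281. Without replicate 1, 2 or 3 of the 17-month-old mice, 1163, 73 and 2679 probes were called. All 2527 genes called kept their direction on leaving out any array, and 1114 of them were still called on slide 3 alone. Of the 2527, 10 were called each time. The 7 of these that rose were Itgax, Prr12, Zmiz1, Nfix, Vwf, Plec and Zfpm1, and the 3 that fell were Akr1c14, Ccdc18 and Plaat5. Ccdc18 and Plaat5 were well above background on no old array and were tested through the young arrays alone. As the fits share arrays, being called each time is not separate support.

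**Figure D2:**
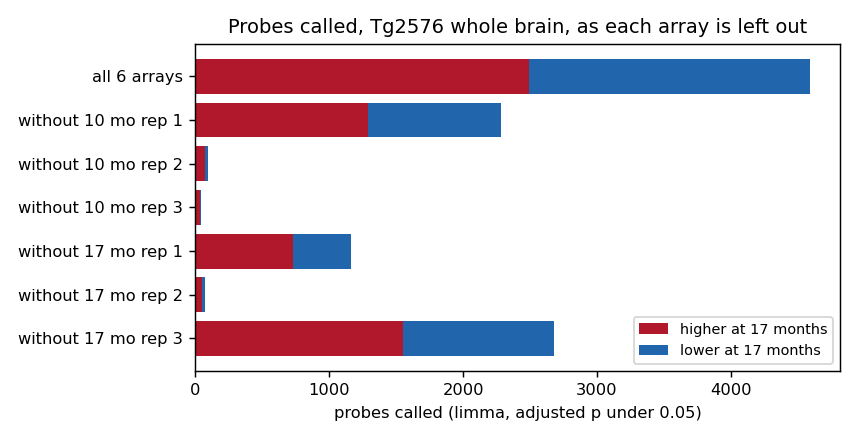
Number of probes called higher (red) and lower (blue) at 17 months by limma at an adjusted p under 0.05, with all 6 Tg2576 whole brain arrays and without each array in turn. The bar of all arrays reaches 4591 probes, and those without an array lie between 42 and 2679.

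Part of the microglial genes known from plaques rose with age. Of 18 genes of this list that were tested, 7 rose and 0 fell, where 10.8% of all genes rose, and 13 had every 17-month array above every 10-month array, which held for 26.8% of all genes. The median log2 fold change was 0.51, against 0.03 over all genes, and between 0.36 and 0.53 on leaving out an array, with which 1 to 6 members were called. In bulk tissue more cells of a type and more RNA per cell cannot be told apart.

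Cst7, an inhibitor of cysteine proteases, was at -4.22, -5.07 and -4.20 at 10 months and -2.13, -2.51 and -1.31 at 17 months. All old brains lay above all young ones, and the rise of 2.51 (standard error 0.37, limma adjusted p = 0.0186) was 5.7-fold. Itgax, the integrin CD11c, was at -4.80, -4.93 and -4.51 at 10 months and -2.92, -2.78 and -2.40 at 17 months, again without overlap. It rose by 2.05 (standard error 0.17, limma adjusted p = 0.0098), or 4.13-fold. Both genes were dim, and after another background correction (normexp) their log2 fold changes were 1.35 and 1.03. Normexp was run with an offset of 50 added to every signal, which by itself shrinks the log2 fold changes of dim genes.

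The other members that rose changed less. Ccl6, a chemokine of myeloid cells, was at -2.34, -2.43 and -2.41 at 10 months and -1.74, -1.60 and -1.26 at 17 months and rose by 0.86 (standard error 0.13, limma adjusted p = 0.0202). Csf1, the cytokine on which microglia depend for survival, was at 0.26, 0.16 and 0.27 at 10 months and 0.91, 0.86 and 0.93 at 17 months and rose by 0.67 (standard error 0.07, limma adjusted p = 0.0133). Axl, a receptor in the uptake of dead cells, rose by 0.44 (standard error 0.07, limma adjusted p = 0.0202), the glycoprotein gene Gpnmb by 0.76 (standard error 0.13, limma adjusted p = 0.0238) and the galectin gene Lgals3 by 0.74 (standard error 0.15, limma adjusted p = 0.0321). For each of these the ages did not overlap. Within slide 3 alone, which held 3 old and 2 young brains, 6 of the 7 were still called, and Gpnmb was not (log2 fold change 0.73, limma adjusted p = 0.0549). Of all 2527 genes called, 1114 were still called there.

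Trem2, the microglial lipid receptor, was at 1.69, 1.56 and 1.51 at 10 months and 1.92, 2.08 and 2.50 at 17 months. No young brain reached an old one, yet the difference of 0.58 (standard error 0.16, limma adjusted p = 0.063) missed the threshold. So did those of its adaptor Tyrobp, 0.29 (standard error 0.08, limma adjusted p = 0.0564), and of the lipid carrier Apoe, 0.28 (standard error 0.09, limma adjusted p = 0.0829). Ccl3, a chemokine, differed by 1.35 (standard error 0.36, limma adjusted p = 0.0593). The probes of Clec7a and Cd68 could not be matched to a gene by transcript and are not given.

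Of 13 genes that mark microglia in general, 0 rose and 1 fell, a share near the 5.12% of all genes. Their median log2 fold change was 0.07, and below 0 without replicate 1 of the 10-month-old mice (-0.01) or replicate 3 of the 17-month-old mice (-0.02). The one that fell was P2ry12, the ADP receptor of homeostatic microglia, at 0.37, 0.48 and 0.31 at 10 months and 0.12, -0.14 and -0.15 at 17 months, a difference of -0.45 (standard error 0.11, limma adjusted p = 0.046). Among the others, P2ry13 differed by -0.47 (standard error 0.14, limma adjusted p = 0.0729) and Fcrls by -0.53 (standard error 0.17, limma adjusted p = 0.091), while Csf1r, the receptor of Csf1, differed by 0.37 (standard error 0.11, limma adjusted p = 0.0736).

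In the complement system, 1 of 12 genes rose and 1 fell, shares near the 10.8% and 5.12% of all genes. C4b, an early component of the classical pathway, was at 2.51, 2.26 and 2.27 at 10 months and 3.74, 3.88 and 4.13 at 17 months. The ages were clearly apart, and C4b rose by 1.57 (standard error 0.13, limma adjusted p = 0.00972), or 2.97-fold.

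Among 15 lysosomal genes tested 3 rose and 1, Lamp2, fell, against 10.8% and 5.12% of all genes, with a median log2 fold change of 0.16. The list is bright, and among the 3171 brightest genes 19.6% rose and 1.99% fell. Laptm5, a lysosomal membrane protein of blood and immune cells, was at -1.25, -1.26 and -1.16 at 10 months and -0.14, 0.04 and 0.29 at 17 months and rose by 1.29 (standard error 0.12, limma adjusted p = 0.0116), or 2.44-fold. Grn, the progranulin gene, was at 1.20, 1.21 and 1.28 at 10 months and 2.13, 2.22 and 2.0 at 17 months and rose by 0.89 (standard error 0.09, limma adjusted p = 0.0116). Ctsz, a cathepsin, rose by 0.31 (standard error 0.07, limma adjusted p = 0.0465).

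Genes outside these lists were among the largest rises. Bcl3, a nuclear partner of NF-kappaB, was at -4.73, -5.05 and -4.95 at 10 months and -2.70, -2.87 and -2.27 at 17 months. It rose by 2.29 (standard error 0.17, limma adjusted p = 0.00806), or 4.9-fold, and by 1.18 after normexp. Ctse, an aspartic protease of immune cells, was not well above background on any young array and was so on all old ones, at -5.72, -7.29 and -6.09 at 10 months and -4.31, -4.63 and -3.79 at 17 months. It was at least 2.76-fold higher at 17 months (limma adjusted p = 0.0326). Ctse was thus tested only through the old arrays, where it was higher.

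**Figure D3:**
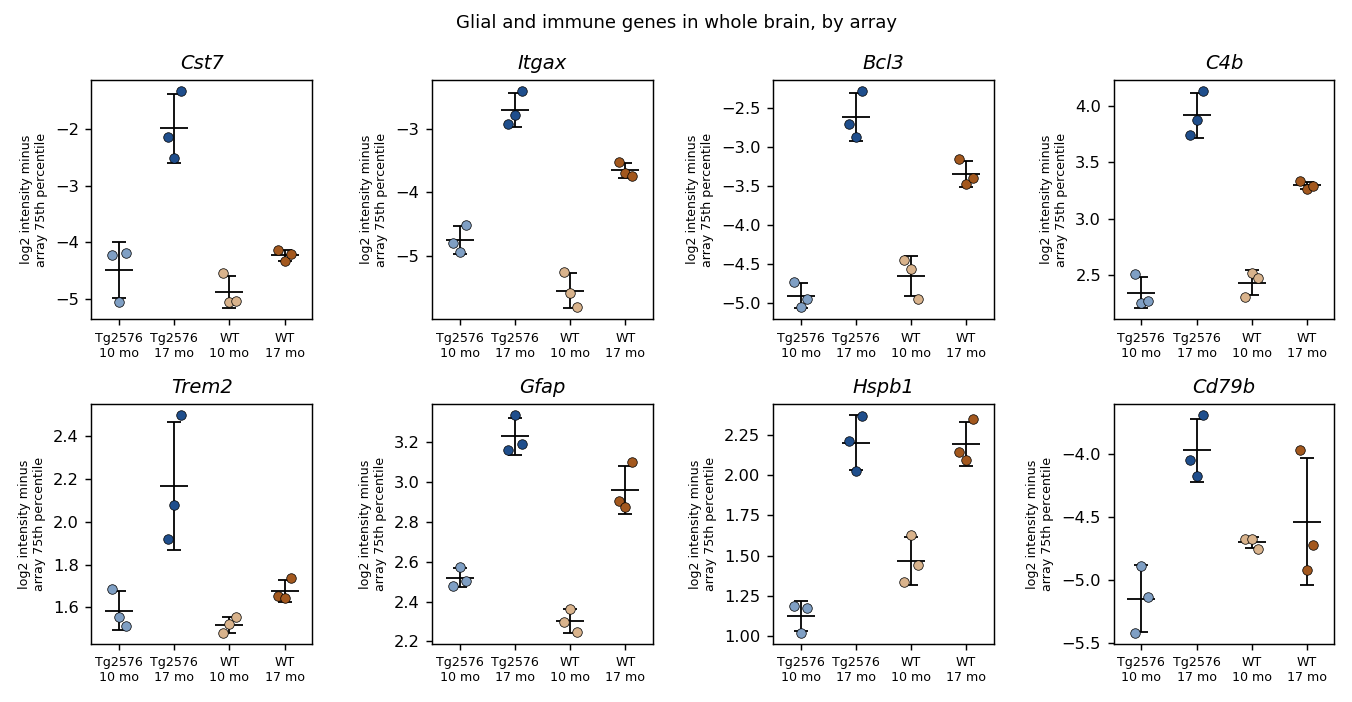
Levels of 8 glial and immune genes on each whole brain array, as log2 intensity minus the 75th percentile of the array, with the mean and SD of each group of 3. In the Tg2576 brains every 17-month array lies above every 10-month array for all 8 genes; in the WT brains Cst7 moved from -4.88 ± 0.29 to -4.23 ± 0.10 (SD, n = 3).

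Part of the reactive astrocyte genes also rose. Of 11 genes tested 5 rose and 0 fell, where 10.8% of all genes rose, all 11 had a positive log2 fold change, and the median was 0.66. Gfap was at 2.48, 2.57 and 2.50 at 10 months and 3.16, 3.34 and 3.19 at 17 months, which did not overlap, and rose by 0.71 (standard error 0.08, limma adjusted p = 0.014), or 1.64-fold. Of the 3 Gfap probes tested 2 were called. Vim, the other intermediate filament gene of these cells, was at 1.15, 1.11 and 1.11 at 10 months and 1.96, 1.75 and 2.0 at 17 months and rose by 0.78 (standard error 0.09, limma adjusted p = 0.0142). Hspb1, a small heat shock protein, was at 1.19, 1.02 and 1.17 at 10 months and 2.21, 2.03 and 2.37 at 17 months and rose by 1.08 (standard error 0.11, limma adjusted p = 0.0126), the largest rise among the 5.

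Osmr, the receptor of the cytokine oncostatin M, was at -1.74, -1.73 and -1.60 at 10 months and -1.14, -1.07 and -0.87 at 17 months and rose by 0.66 (standard error 0.10, limma adjusted p = 0.0191). Lcn2, which binds iron carriers and is induced in inflammation, was at -2.37, -2.09 and -2.26 at 10 months and -1.34, -1.32 and -1.64 at 17 months and rose by 0.81 (standard error 0.12, limma adjusted p = 0.0197). Within slide 3 all 5 were called, where 1114 of all 2527 genes called were, and leaving out an array left 0 to 5. Of 10 genes of astrocytes in general 1 rose, a share near the 10.8% of all genes. It was the transcription factor gene Sox9, which rose by 0.38 (standard error 0.08, limma adjusted p = 0.0347).

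Of 13 genes of antigen presentation tested 3 rose, and 0 fell, where 10.8% of all genes rose, with a median log2 fold change of 0.48. Tap2, a subunit of the peptide transporter that loads MHC class I, was at 0.74, 0.70 and 0.84 at 10 months and 1.66, 1.66 and 1.57 at 17 months and rose by 0.87 (standard error 0.08, limma adjusted p = 0.0113). Its partner Tap1 was not well above background on any young array and was on 2 old ones, so it was tested through the old arrays alone. It rose by 0.89 (standard error 0.16, limma adjusted p = 0.0276), or 1.85-fold. The bound set for a gene below background equals this measured fold and so gives no further limit. H2-K1, an MHC class I heavy chain, was at 1.93, 2.07 and 1.80 at 10 months and 2.63, 2.51 and 2.38 at 17 months and rose by 0.57 (standard error 0.11, limma adjusted p = 0.0282). A further H2-K1 probe differed by 0.48 and was not called. Probes of MHC class I genes can share sequence with other members of the family. Cd74, the invariant chain of MHC class II, differed by 1.0 (standard error 0.28, limma adjusted p = 0.0658). Of 15 genes of the interferon response 0 passed, with a median of 0.13.

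Among T and B cell genes 3 of 9 tested rose and 0 fell, where 10.8% of all genes rose, with a median log2 fold change of 0.25, and 5 more of the 14 listed were too dim to test. Cd79b, a part of the B cell receptor, was at -5.42, -4.89 and -5.13 at 10 months and -4.05, -4.17 and -3.69 at 17 months and rose by 1.17 (standard error 0.18, limma adjusted p = 0.0197). Jchain, which joins IgA and IgM chains, was at -2.43, -2.66 and -2.39 at 10 months and -1.64, -2.07 and -1.65 at 17 months and rose by 0.70 (standard error 0.15, limma adjusted p = 0.0345). Cd3e, a part of the T cell receptor, was at 0.61, 0.57 and 0.69 at 10 months and 0.98, 0.97 and 1.14 at 17 months and rose by 0.41 (standard error 0.09, limma adjusted p = 0.0353). Its probe was far brighter than those of Cd79b and Jchain, and whether it reads only Cd3e was not tested. The ages did not overlap for these genes. Cd79a, the partner of Cd79b, differed by 0.08 (standard error 0.15, limma adjusted p = 0.758), and within slide 3 only Cd79b of the 3 was called.

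Of 19 genes that process APP or clear amyloid, 6 rose and 0 fell, with a median log2 fold change of 0.28, and 13 lay higher on every old array, against 10.8% and 26.8% of all genes. Among the 3171 brightest genes 19.6% rose. App itself was at 5.96, 6.04 and 6.11 at 10 months and 6.36, 6.37 and 6.32 at 17 months, a rise of 0.31 (standard error 0.08, limma adjusted p = 0.0472). Whether its probe also reads the human transgene was not tested. Psen2 and Aph1a, subunits of gamma-secretase, rose by 0.55 (standard error 0.10, limma adjusted p = 0.0269) and 0.52 (standard error 0.11, limma adjusted p = 0.0356). Ece1, a protease that degrades amyloid beta, rose by 0.62 (standard error 0.09, limma adjusted p = 0.0182), the endocytic receptor gene Lrp1 by 0.53 (standard error 0.08, limma adjusted p = 0.0182) and Clu, an amyloid-binding chaperone, by 0.40 (standard error 0.07, limma adjusted p = 0.0268). Bace1, the beta-secretase, differed by 0.22 (standard error 0.08, limma adjusted p = 0.139), and Ncstn of gamma-secretase by 0.73 (standard error 0.21, limma adjusted p = 0.0675). Within slide 3, 3 of the list were called, among them Ece1 and Lrp1, and App was not (limma adjusted p = 0.09).

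Part of the vessel genes rose. Of 13 genes of endothelial and mural cells 5 rose and 1 fell, against 10.8% and 5.12% of all genes. The median log2 fold change was 0.26, and 0.16 without replicate 1 of the 17-month-old mice. Cldn5, the tight junction protein of the blood-brain barrier, was at 1.42, 1.27 and 1.44 at 10 months and 2.22, 2.39 and 2.29 at 17 months and rose by 0.92 (standard error 0.09, limma adjusted p = 0.0116). Flt1, a receptor of VEGF, rose by 0.72 (standard error 0.15, limma adjusted p = 0.0343) and the endothelial cadherin gene Cdh5 by 0.55 (standard error 0.10, limma adjusted p = 0.0273). Pdgfrb, the PDGF receptor of pericytes, rose by 0.56 (standard error 0.08, limma adjusted p = 0.0176) and the matrix protein gene Vtn by 0.45 (standard error 0.11, limma adjusted p = 0.0472). Rgs5, also of pericytes, was at 1.16, 1.14 and 0.86 at 10 months and 0.47, 0.23 and 0.65 at 17 months and fell, with a log2 fold change of -0.60 (standard error 0.14, limma adjusted p = 0.0437). Within slide 3, Cldn5, Cdh5 and Pdgfrb were called.

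Outside this list, Vwf, the von Willebrand factor of endothelial cells, was at 1.28, 1.19 and 1.13 at 10 months and 2.38, 2.53 and 2.52 at 17 months and rose by 1.28 (standard error 0.09, limma adjusted p = 0.00532). Sox18, an endothelial transcription factor, was at -3.78, -3.30 and -3.34 at 10 months and -1.93, -1.96 and -2.19 at 17 months and rose by 1.44 (standard error 0.15, limma adjusted p = 0.0129). Vwf was chosen after its values were seen, because it was called on leaving out any array. In the meninges and their collagen, 2 of 9 genes rose, where 10.8% of all genes did. Over the 9 the median log2 fold change was -0.16, and 0.02 without replicate 2 of the 17-month-old mice. They were Col1a1, at -1.66, -1.55 and -1.77 at 10 months and -0.23, -0.97 and 0.03 at 17 months, which rose by 1.27 (standard error 0.25, limma adjusted p = 0.0316), and Col1a2, which rose by 0.84 (standard error 0.20, limma adjusted p = 0.0452). Both were lost within slide 3 (limma adjusted p = 0.0678 and 0.0964).

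Few synaptic genes passed. Of 15 genes of glutamatergic synapses 2 rose and 0 fell, a share near the 10.8% of all genes that rose, with a median log2 fold change of 0.28. Syn1, a synaptic vesicle protein, was at 5.54, 5.78 and 5.83 at 10 months and 6.73, 6.75 and 6.76 at 17 months and rose by 1.03 (standard error 0.10, limma adjusted p = 0.0116), and Slc17a7, a vesicular glutamate transporter, rose by 0.50 (standard error 0.11, limma adjusted p = 0.0346). Of 10 genes of GABA neurons 1 rose, again near that share, and 2 fell, where 5.12% of all genes did. Slc32a1, which loads GABA into vesicles, was at 5.56, 5.48 and 5.53 at 10 months and 6.17, 6.18 and 6.4 at 17 months and rose by 0.73 (standard error 0.09, limma adjusted p = 0.0152).

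Among markers of brain regions, 3 of 8 thalamus genes rose, where 10.8% of all genes did, with a median log2 fold change of 0.48. Lef1, a transcription factor of thalamic neurons, was at -1.70, -1.59 and -1.84 at 10 months and -0.90, -0.81 and -0.80 at 17 months and rose by 0.87 (standard error 0.09, limma adjusted p = 0.0129). Tcf7l2, its relative, rose by 0.58 (standard error 0.13, limma adjusted p = 0.0408) and the receptor-modifying protein gene Ramp3 by 0.48 (standard error 0.12, limma adjusted p = 0.0464). Of 8 hippocampus genes Wfs1 and C1ql2 rose, by 0.80 (standard error 0.07, limma adjusted p = 0.0102) and 0.51 (standard error 0.11, limma adjusted p = 0.0405). In cortical layers Cux1 and Cux2 rose and Foxp2 fell, of 10 genes, where 10.8% of all genes rose and 5.12% fell. Foxp2 was called by 1 of its 2 probes, with the other at -0.07, and Cux1 by 1 of its 3. Of 12 striatum genes 0 passed. Within slide 3, Lef1 and Wfs1 were the only ones of these thalamus and hippocampus genes still called.

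Of 11 genes of oligodendrocytes and myelin 2 rose, where 10.8% of all genes did, the myelin genes Mag, by 0.50 (standard error 0.10, limma adjusted p = 0.0289), and Mobp, by 0.55 (standard error 0.12, limma adjusted p = 0.0402), while Mbp differed by 0.29 (standard error 0.11, limma adjusted p = 0.12). Of 7 genes of their precursors 1 rose, the proteoglycan gene Cspg4, by 0.73 (standard error 0.10, limma adjusted p = 0.0174). Mag and Mobp were not called within slide 3 or on leaving out any other array.

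Part of the circadian clock genes rose. They encode a loop in which Clock and Arntl switch on the Per and Cry repressors and, through the same sites, Nr1d1 and Dbp, so that levels run with the hour of the day. The hour at which tissue was taken is not given in the sources used here, and its part was not tested. Of 19 genes 6 rose, where 10.8% of all genes did, and 1 fell, a share near the 5.12% of all genes. The median log2 fold change was 0.25, and between 0.19 and 0.36 on leaving out an array. Nr1d1, a repressor of Arntl, was at -0.22, -0.29 and -0.43 at 10 months and 0.65, 0.65 and 0.52 at 17 months and rose by 0.92 (standard error 0.09, limma adjusted p = 0.0116), or 1.89-fold. Dbp, an output of the clock, was at 4.92, 4.94 and 4.94 at 10 months and 5.55, 5.63 and 5.65 at 17 months and rose by 0.68 (standard error 0.07, limma adjusted p = 0.0128). Per1 was at 2.94, 3.05 and 3.05 at 10 months and 3.46, 3.70 and 3.66 at 17 months and rose by 0.59 (standard error 0.09, limma adjusted p = 0.0206).

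Cry1 rose by 0.50 (standard error 0.10, limma adjusted p = 0.0345), Cry2 by 0.48 (standard error 0.10, limma adjusted p = 0.0337) and Bhlhe41, a further repressor, by 0.40 (standard error 0.09, limma adjusted p = 0.0437). Nr1d2, the paralog of Nr1d1, was at 1.24, 1.45 and 1.37 at 10 months and 0.87, 0.89 and 0.50 at 17 months and fell, with a difference of -0.60 (standard error 0.13, limma adjusted p = 0.0377). Arntl differed by -0.26 (standard error 0.09, limma adjusted p = 0.12) and Clock by -0.36 (standard error 0.12, limma adjusted p = 0.0894). Of the 6 that rose, 4 were called within slide 3, where 1114 of all 2527 genes called were, and 0 to 4 on leaving out an array.

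Of 21 genes of insulin signaling 4 rose and 0 fell, where 10.8% of all genes rose. Their median log2 fold change was 0.21, and lower, between 0.13 and 0.17, on leaving out any array, the lowest without replicate 1 of the 10-month-old mice. Irs2, an adaptor of the insulin receptor, was at 3.12, 3.46 and 3.63 at 10 months and 4.32, 4.42 and 4.17 at 17 months and rose by 0.90 (standard error 0.15, limma adjusted p = 0.0219). Akt1, the kinase downstream, rose by 0.35 (standard error 0.07, limma adjusted p = 0.0332), Foxo1, a transcription factor it holds in check, by 0.51 (standard error 0.11, limma adjusted p = 0.0394) and Igfbp5, which binds insulin-like growth factors, by 0.44 (standard error 0.09, limma adjusted p = 0.0346). Irs2 was the only one called within slide 3. Of 16 chaperone genes 3 rose, Hspb1, Hspa1a and Hsp90ab1, and 2 fell, against 10.8% and 5.12% of all genes. Those that fell were Hsp90aa1, with a log2 fold change of -0.37 (standard error 0.08, limma adjusted p = 0.034), and Dnaja1, with -0.38 (standard error 0.07, limma adjusted p = 0.0305). A further Dnaja1 probe differed by -0.29 and was not called. Among the 3171 brightest genes 19.6% rose and 1.99% fell. Hspa1a shares nearly all of its sequence with Hspa1b, so its signal may hold both.

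To see the starts of genes that rose, promoters were taken from RefSeq (GRCm38.p6) and searched on both strands, from 250 bases before the start to 50 after it. Those of Itgax, Hspb1 and Per1 are shown, 1 for each list in which at least 2 of the genes that rose held the motif searched. The capitals mark the matches to 1 motif per gene in the 250 bases before the start. These are the AP-1 motif in Itgax, the heat shock element in Hspb1 and the E-box in Per1. A match of Per1 to another motif searched, the D-box, is in lower case.
Itgax, chr7:128129300-128129549, strand +: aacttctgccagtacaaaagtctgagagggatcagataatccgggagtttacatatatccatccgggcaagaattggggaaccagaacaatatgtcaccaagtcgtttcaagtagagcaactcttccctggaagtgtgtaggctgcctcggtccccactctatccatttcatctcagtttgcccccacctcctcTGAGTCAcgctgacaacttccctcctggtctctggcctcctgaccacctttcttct
Hspb1, chr5:135887669-135887918, strand +: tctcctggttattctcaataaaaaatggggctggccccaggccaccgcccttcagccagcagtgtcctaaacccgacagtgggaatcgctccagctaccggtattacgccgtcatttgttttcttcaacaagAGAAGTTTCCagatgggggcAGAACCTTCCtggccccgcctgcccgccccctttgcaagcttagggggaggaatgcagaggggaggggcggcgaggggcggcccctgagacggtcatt
Per1, chr11:69098699-69098948, strand +: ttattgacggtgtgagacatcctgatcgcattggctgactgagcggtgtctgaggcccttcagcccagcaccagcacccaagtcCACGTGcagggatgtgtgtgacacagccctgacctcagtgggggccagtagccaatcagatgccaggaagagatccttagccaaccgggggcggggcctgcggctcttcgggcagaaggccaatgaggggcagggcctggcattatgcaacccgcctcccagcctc

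The matches shown lie 56 bases before the start in Itgax, 166 in Per1 and, for the first of a pair, 118 in Hspb1. The AP-1 motif TGANTCA, shown for Itgax, was found in 3 of the 7 plaque-associated microglial genes that rose (Cst7, Itgax and Gpnmb), in 4 of all 15 members tested that had a promoter and in 7.81% of all 32851 promoters (6.75% of genes tested). The heat shock element, GAA and TTC with 2 bases between them and 1 on each side, was found in both chaperone genes that rose and had a promoter in the table (Hspb1 and Hspa1a), in 6 of all 11 members tested, so that 4 members that did not rise held it too, and in 7.8% of all promoters (7.23% of genes tested). The E-box CACGTG was found in 3 of the 6 clock genes that rose (Per1, Cry1 and Bhlhe41), in 5 of all 17 members tested and in 7.15% of all promoters (10.8% of genes tested). A match is a description of the sequence only. Of genes that rose and had a promoter, the PU.1 motif GAGGAAGT was in 0 of 7 microglial genes (3.2% of all promoters) and the CLEAR core GTCACGTG, which contains the E-box, in 0 of 3 lysosomal genes (2.25%). The ISRE, GAAA repeated after 2 bases, was in 0 of 2 antigen presentation genes (3.44%), the CRE TGACGTCA in 0 of 1 immediate early gene (1.79%) and the D-box TTATGNAA in 1 of 6 clock genes (3.38%).

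**Figure D4:**
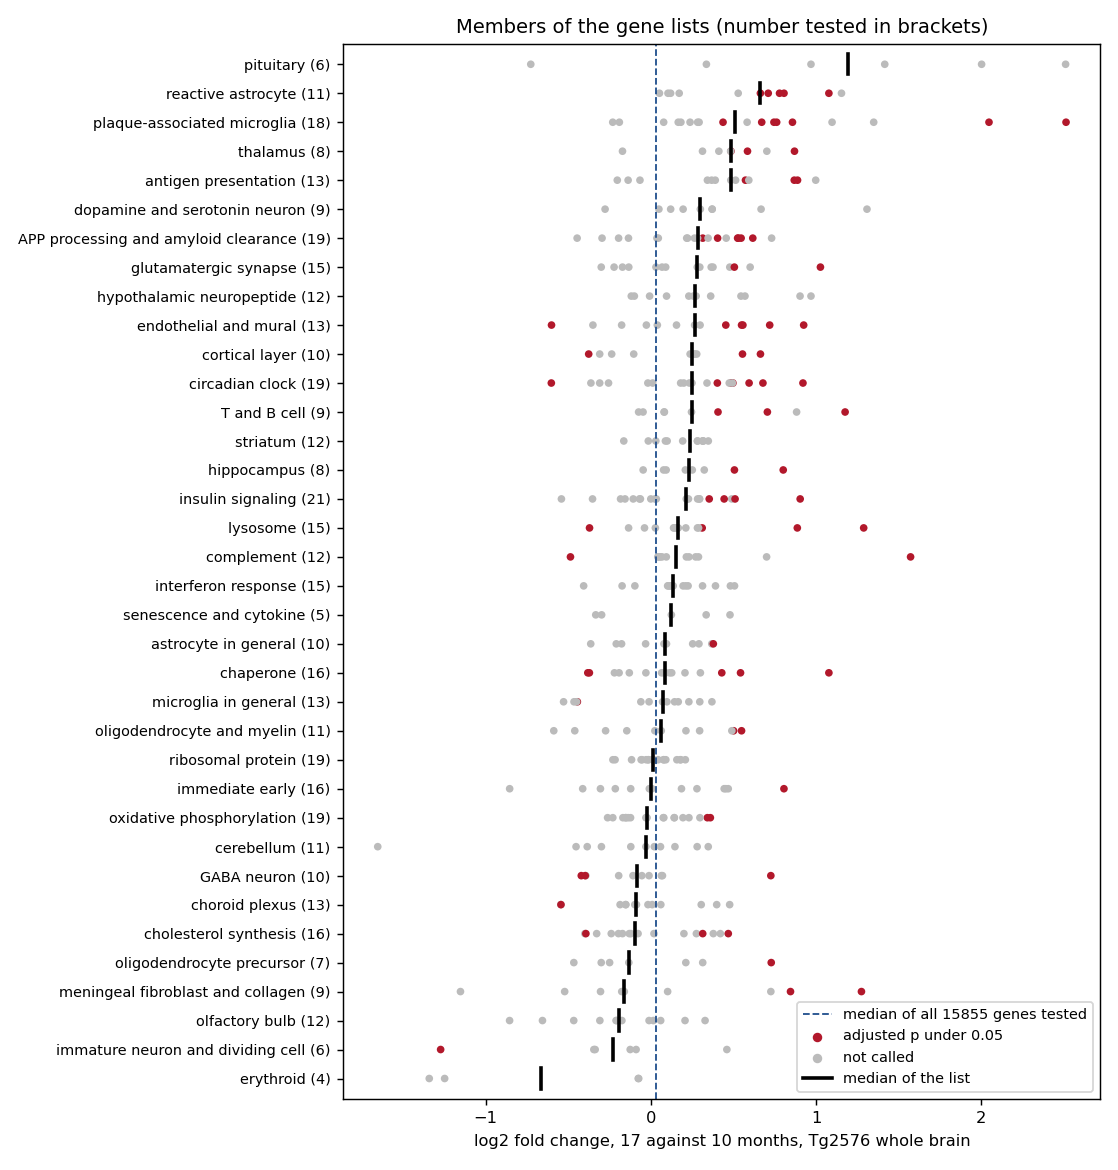
Log2 fold change at 17 against 10 months in Tg2576 whole brain for each member of 36 gene lists with at least 4 members tested (points; red, called at an adjusted p under 0.05), with the median of each list (bar) and that of all 15855 genes (dashed line, 0.03). Reactive astrocyte and plaque-associated microglial genes lie to the right, while the pituitary list has the highest median, 1.19, with 0 genes called.

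The remaining lists held few calls, where 10.8% of all genes rose and 5.12% fell. Of 19 cytosolic ribosomal protein genes 0 passed, with a median log2 fold change of 0.01, and of 19 genes of oxidative phosphorylation 2 rose, with a median of -0.02. In cholesterol synthesis 2 of 16 genes rose, among them Dhcr7, and Msmo1 fell. Of 16 immediate early genes Egr4 rose, by 0.80 (standard error 0.12, limma adjusted p = 0.0197), and of 13 choroid plexus genes Steap1, a metalloreductase, fell, with a log2 fold change of -0.54 (standard error 0.13, limma adjusted p = 0.0445). Of 6 genes of immature neurons and dividing cells, the cyclin gene Ccnb1 was called lower (limma adjusted p = 0.0429), but it was well above background on 0 old arrays and no bound above 1 could be set on its fold. None of 12 hypothalamic neuropeptide genes, 9 dopamine and serotonin neuron genes, 5 senescence and cytokine genes, 4 erythroid genes and 1 Hox gene tested passed.

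The largest rises by gene also held regulators of transcription. Zmiz1, a coactivator, was at 1.51, 1.74 and 1.70 at 10 months and 3.14, 3.11 and 3.02 at 17 months and rose by 1.44 (standard error 0.09, limma adjusted p = 0.00447). Prr12 was at -3.83, -4.03 and -3.89 at 10 months and -2.37, -2.24 and -2.54 at 17 months and rose by 1.53 (standard error 0.11, limma adjusted p = 0.00607), or by 0.94 after normexp. Ahdc1 was at 0.69, 1.01 and 1.05 at 10 months and 2.38, 2.53 and 2.17 at 17 months and rose by 1.44 (standard error 0.14, limma adjusted p = 0.0116). Dlk1, an imprinted gene of the Notch pathway, was at 0.93, 0.10 and 0.50 at 10 months and 2.47, 2.30 and 1.80 at 17 months and rose by 1.68 (standard error 0.26, limma adjusted p = 0.0195). Of those called on leaving out any array and named for that reason, Nfix, a transcription factor, was at 1.54, 1.58 and 1.69 at 10 months and 3.06, 3.1 and 2.95 at 17 months and rose by 1.43 (standard error 0.08, limma adjusted p = 0.00292), Plec, a linker of intermediate filaments, rose by 1.27 (standard error 0.09, limma adjusted p = 0.00608) and Zfpm1, a partner of GATA factors, by 1.17 (standard error 0.09, limma adjusted p = 0.00806).

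The 10 largest falls were genes near background. Defb26, Plaat5, Wfdc6a, Kif12, Vmn1r197, Bcl2l14, Dsg1c, Dnajb8, Wfdc6b and 4930528A17Rik were well above background on 2 or 3 young arrays and on 0 old ones, so that only bounds hold. Plaat5, an acyltransferase, was at -4.98, -5.18 and -4.67 at 10 months and -7.19, -7.39 and -7.46 at 17 months, at least 1.13-fold lower at 17 months (limma adjusted p = 0.00433). Defb26, a defensin, was at least 1.38-fold lower, Dnajb8, a DnaJ chaperone, at least 1.8-fold and Kif12, a kinesin, at least 1.95-fold. After normexp, 0 of the 10 were called, with log2 fold changes of -0.24 to -0.05. The offset of normexp shrinks changes in genes this dim, so the loss of these calls cannot tell whether they fell. Of the 812 genes that fell, 41 (5.05%) were well above background on no old array, against 2.38% of all genes tested, while 2 of the 1715 that rose were well above background on no young array.

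Akr1c14, a hydroxysteroid dehydrogenase, was well above background on all 6 arrays. It was at -3.08, -3.04 and -2.99 at 10 months and -4.32, -4.18 and -4.14 at 17 months and fell, with a log2 fold change of -1.18 (standard error 0.08, limma adjusted p = 0.00606). It was called on leaving out any array, as was Ccdc18. Ccdc18 was at -4.32, -4.27 and -4.15 at 10 months and -5.44, -5.49 and -5.41 at 17 months, well above background on 0 old arrays, and at least 1.83-fold lower. It was thus tested only through the young arrays, where it was higher.

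The same ages were set side by side in WT whole brain, from arrays that the Tg2576 comparison did not use. There 3063 of 15849 genes (19.3%) rose and 1723 (10.9%) fell. All 3 WT brains of 10 months lay on slide 2 and all 3 of 17 months on slide 3, so that age and slide cannot be told apart in WT mice. Of 2516 genes called in Tg2576 brains and tested in both, 2387 (94.9%) had the same sign in WT and 1533 were called there too. The share with the same sign among all genes tested in both was not counted, so 94.9% has no baseline. Across 15698 genes the log2 fold changes of the genotypes had a Pearson's r of 0.61, which is a description, as genes are not independent and all 6 old brains lay on slide 3.

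The plaque-associated microglial list had a median log2 fold change of 0.44 in WT brains, with 8 of 18 genes higher, where 19.3% of all genes rose, and the reactive astrocyte list 0.22, with 4 of 11 higher and 1 lower. Itgax was not well above background on any young WT array and was at least 3.34-fold higher at 17 months (limma adjusted p = 0.00394). In the same WT brains Gfap rose by 0.66 (limma adjusted p = 0.0058), C4b by 0.86 (limma adjusted p = 0.00402) and Cst7 by 0.65 (limma adjusted p = 0.0268). Among the other largest rises, Bcl3 rose there by 1.32, Dlk1 by 1.45, Prr12 by 1.70, Sox18 by 1.49, Ahdc1 by 1.47 and Zmiz1 by 1.49 (limma adjusted p from 0.00394 to 0.0117). Ctse was not tested in WT. Nr1d1 and Dbp rose by 0.81 and 0.65 (limma adjusted p = 0.0144 and 0.00689). The 10 largest falls were all called lower in WT too, with 0 or 1 old WT arrays well above background.

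Whether the change with age differed between the genotypes was tested over all 12 arrays. Limma called 0 of 38480 probes (0% of 16006 genes), with a smallest adjusted p of 0.189, while 6448 probes and 2649 genes (16.6%) had an unadjusted p under 0.05. Without replicate 1 of the 10-month-old Tg2576 mice, the one on slide 2, 718 probes were called. All young WT arrays lay on slide 2, but of the young Tg2576 arrays only that replicate did. The difference between genotypes therefore also holds a difference between slides, and the 2 cannot be told apart, least of all in the 718 calls. The rise of Cst7 in Tg2576 brains minus that in WT was 1.86 (standard error 0.44, limma adjusted p = 0.189) and that of C4b 0.71 (standard error 0.15, limma adjusted p = 0.189), differences that did not pass. The difference between the genotypes was 0.15 for Itgax, measured against young WT arrays below background, and 0.05 for Gfap (limma adjusted p = 0.787 and 0.837), and each changed sign on leaving out 1 array or, for Gfap, with other scaling.

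For Tyrobp the difference was 0.35 (standard error 0.09, limma adjusted p = 0.189), for Lcn2 0.95, for Cd79b 1.01 and for Jchain 1.02, with limma adjusted p between 0.189 and 0.201. P2ry12 and Nr1d2 had differences of -0.58 and -0.71, and App, which differed by 0.58 in WT brains, one of -0.26 (limma adjusted p = 0.191, 0.189 and 0.199). Among genes with an unadjusted p under 0.05 for this difference, the 5 largest in each direction were Gm6592, Adam24, Vmn2r46, Mpzl3 and Ltf above 0 and Prr32, Rfx2, Olfr477, Arhgap11a and Fabp12 below. Each of the 10 lacked a signal well above background on 2 or 3 arrays of a group, so no size is given.

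**Figure D5:**
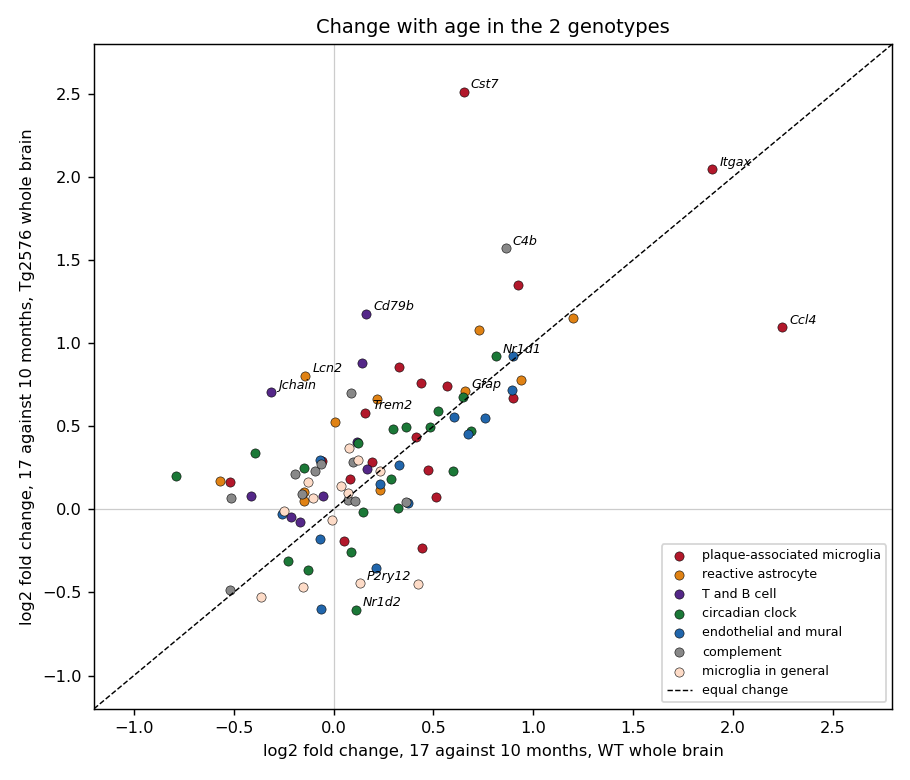
Log2 fold change at 17 against 10 months in WT (x axis) and Tg2576 (y axis) whole brain for the members of 7 gene lists tested in both; the dashed line marks equal change. Itgax, not well above background in young WT brains, lies near the line, and Cst7 (0.65 and 2.51) and C4b (0.86 and 1.57) above it, differences that did not pass the test of the genotype difference.

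In Tg2576 cortex, measured on 6 further arrays, 1282 of 15873 genes (8.08%) rose and 498 (3.14%) fell between 10 and 17 months. The young cortices lay on slide 1 and the old ones on slide 2, so age and slide cannot be told apart there, and whether cortex and whole brain came from the same mice is not stated. Cst7 rose there by 2.59 (limma adjusted p = 0.0227), Itgax by 2.39 (limma adjusted p = 0.0221), C4b by 1.27 (limma adjusted p = 0.0174) and Laptm5 by 0.61 (limma adjusted p = 0.0204). Gfap differed by 0.63 (limma adjusted p = 0.0572). Nr1d1 rose by 0.61 (limma adjusted p = 0.0221), Dbp by 0.55 (limma adjusted p = 0.021) and Cldn5 by 0.57 (limma adjusted p = 0.0251). Jchain and Cd3e, which rose in whole brain, had log2 fold changes of -0.31 and -0.45 in cortex, the latter called lower (limma adjusted p = 0.0332).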

How the data were processed

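Total RNA was hybridized with 1 colour (Cy3), 1 array per sample. Per the submitters' processing notes, images were read with Agilent Feature Extraction 10.7.3.1. The deposited intensity was background-subtracted and not scaled between arrays. The authors also deposited a log2 table, and 99.8% of its values could be had, to within 0.01, from the log2 intensity by subtracting a constant near the 75th percentile of the array. Control spots (3671 of 62976) and outlier spots were left out, spots of a probe were averaged and log2 values were reduced by each array's 75th percentile. Probes were tested if well above background on at least 2 of 3 arrays of a group. Limma 3.58.1 in R 4.3.3 gave each comparison, with Benjamini-Hochberg adjustment over all probes at 0.05. On simulated data of 37899 probes for the Tg2576 comparison, 100 were changed by 1 and 100 by 2 on the log2 scale. Of these limma recovered 65% and 86%, with 10 false calls. The simulated noise was independent between probes and arrays, and far fewer probes changed than were called here. These rates therefore do not carry over to the data. Symbols were matched by transcript to RefSeq genes (26056 probes, 19752 symbols), and a gene was given by its probe with the highest mean over the 12 whole brain arrays. Where no array of a group measured a gene well above background, the fold is a bound. For each array of the dim group it used the gene's own value or the lowest value of a well measured probe, whichever was higher. For Tap1 the gene's own value was the higher on each, so its bound equals the measured fold. Samples were grouped by genotype, tissue and age. The genes, 38 lists and tests were chosen with earlier results of these data known. Named were the 10 largest rises and falls among called genes without overlap between ages, up to 4 genes per list with the smallest p, the 5 largest genotype differences in each direction among those with an unadjusted p under 0.05, and Gfap, Trem2, Cst7, Itgax, Clec7a and App. Further members were chosen after their values were seen. Lists are described by counts and medians, with no test. Replicate numbers did not pair the samples, as the deviations of same-numbered arrays from their group means correlated at -0.02, 0.01 and -0.05. Alternatives were quantile and median scaling, the log2 table, normexp (offset 50) on median spot signals, other filters, slide and replicate as a block, 12 arrays in 1 model, the methods' t-test, and each array left out. The miRNA arrays and WT cortex were not used here, and a few genes counted in the lists are not reported here by name. The number of arrays limits the precision.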

Additional observations from a re-analysis of the deposited data

How the results depend on the processing

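The number of probes called at 17 against 10 months, 4591, was 7317 with normexp, 10142 with no filter, 8733 with all 12 whole brain arrays in 1 model, 2774 by the methods' t-test after adjustment, 1859 with slide as a block, 2281 on slide 3 alone and 42 to 2679 without 1 array. The replicate block, for a number that does not pair the samples, gave 13 probes, all higher. The number past fold 1.5, 2671, was 953 with normexp and 7318 with no filter. The normexp offset by itself lowers this number, as it shrinks the changes of dim genes. The share of called probes that were higher, 54.3%, was 46.3% with quantile scaling, 67.9% with normexp and 78.2% with no filter, and normexp moved the median log2 fold change of all probes from -0.02 to 0.08. The test of the genotype difference called 0 probes, 9 with slide as a block, 0 with the replicate block and 0 to 718 without 1 array, the highest without replicate 1 of the 10-month-old Tg2576 mice. Reversed were Fabp12 with normexp (0.10), and the genotype differences of Fabp12 with normexp (0.050), of Gfap with median centring (-0.035), with normexp (-0.00069) and without replicate 2 of the 17-month-old Tg2576 mice (from -0.00037 to 0.12 without 1 array), and of Itgax without replicate 3 of the same group (from -0.00067 to 0.28). Of 110 genes followed, 95 kept their call with quantile scaling, 110 with the log2 table, 64 on slide 3 alone and 13 with the replicate block, and the cause of these changes was not tested. Among 21 followed genes with more than 1 probe tested, the median over the probes lay at least 1 standard error from the value given in 8. Signal over background limits the dim genes, of which the 10 largest falls were not called with normexp, whose offset shrinks such changes.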

Other observations

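Granulocyte genes varied between arrays of 1 group. S100a9, a calcium-binding protein of neutrophils, was at -1.63, -0.34 and -0.70 at 10 months and 1.42, -0.42 and 1.19 at 17 months in Tg2576 brains, and its partner S100a8 at -3.93, -2.46 and -2.86 at 10 months and -0.89, -2.81 and -1.18 at 17 months. Replicates 1 and 3 of the 17-month-old mice were high in both and replicate 2 lay among the young brains. Among 10-month-old WT brains, replicate 1 was at 1.35 for S100a9 and the others at -1.04 and -0.97. Ngp, a granule protein, was at -5.76, -6.66 and -6.33 at 10 months and -2.45, -5.56 and -3.87 at 17 months, well above background on 0 young and 2 old arrays. These genes were chosen after their values were seen, and the difference of S100a9 in Tg2576 brains was 1.62 (standard error 0.56, limma adjusted p = 0.107). Calls were unevenly spread over levels. Among the 3171 genes with the highest mean level 19.6% rose and 1.99% fell, and among the 3171 with the lowest 3.31% rose and 4.89% fell, with median log2 fold changes of 0.12 and -0.05.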
